A study of Mus musculus with 16 samples.

Results

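The 10 genes of apolipoprotein and cholesterol handling described here were followed across 4 genotypes of brain CD11b+ cells. They were chosen by symbol: the apolipoprotein genes Apoe, Apoc1 and Apoc2, the lipase gene Lpl, the efflux transporter genes Abca1 and Abcg1, the oxysterol enzyme gene Ch25h, and the cholesterol storage and release genes Soat1, Plin2 and Nceh1. All 10 were found among the 55385 genes of the count table, and 9 of them were among the 14513 genes with enough counts for a test. Apoc2 was not. The same 9 members also had enough counts when the filter was applied to the 4 WT libraries alone, so none entered the test only through the genotypes in which it was high.

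RNA was sequenced from cells captured with CD11b-coated magnetic beads from brains of female mice, after the meninges and choroid plexus had been taken off, in 16 libraries with 4 per genotype. The age on the labels was 20 weeks. The 4 genotypes were WT (Card9+/+ without the transgenes), Card9-/-, 5xFAD and Card9-/-5xFAD. 5xFAD mice carry human amyloid precursor protein and presenilin transgenes with familial Alzheimer's disease mutations, driven in neurons by the Thy1 promoter, and accumulate Aβ in the brain. Card9 encodes a signaling adaptor of myeloid cells, and in Card9-/- mice it is deleted in every cell, so an effect of genotype need not arise in the captured cells. The comparisons ask how the members respond to the transgenes, whether they do so in mice with and without Card9, and whether Card9 genotype changes their level.

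In the brain, lipoprotein particles built on apolipoprotein E carry cholesterol between cells. ABCA1 and ABCG1 move cellular cholesterol onto such particles, LPL splits the triglycerides of lipoproteins, SOAT1 turns free cholesterol into esters for storage in droplets coated by PLIN2, and NCEH1 takes part in freeing cholesterol from esters. CH25H makes 25-hydroxycholesterol, an oxysterol that activates liver X receptors (LXRs), and Apoe, Abca1 and Abcg1 are classical LXR target genes. Microglia near amyloid plaques are known for high Apoe and Lpl.

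Between 2970148 and 19333325 reads were counted on genes per library (median 7944265). All 10 microglia markers were detected in every library, with a summed level between 16252 and 33349 CPM (counts scaled to a common library total, with TMM library sizes), and astrocyte markers summed to between 172 and 354 CPM. The 3 libraries of fewest reads, Card9-/-5xFAD replicate 4, Card9-/- replicate 4 and WT replicate 1, stood apart: their neutrophil markers summed to 6047, 6362 and 3690 CPM against at most 2511 CPM elsewhere. Several values below moved when they were left out, and are then also given without them. Card9 itself ranged from 13.6 to 51.3 CPM in WT, from 16.7 to 34.8 CPM in libraries labelled Card9-/-, from 15.6 to 33.5 CPM in 5xFAD and from 9.73 to 33.7 CPM in libraries labelled Card9-/-5xFAD. The counts per gene do not show the deletion (edgeR, change of -0.34 on the log2 scale, SE 0.45, adjusted p = 0.970 without the transgenes and -0.44, SE 0.45, adjusted p = 0.993 with them), so Card9 genotypes are those of the labels, and every direction between them rests on the labels.

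Of the members, 3 that rose with the transgenes and 1 that did not are shown by the 250 bases before their annotated start. These promoter sequences (RefSeq, GRCm38.p6) are read 5′ to 3′ on the strand of the gene. The windows are chr7:19699189-19699438 on the minus strand for Apoe (the first of 3 annotated starts), chr19:34475149-34475398 on the minus strand for Ch25h, chr3:27182754-27183003 on the plus strand for Nceh1 and chr4:53159896-53160145 on the minus strand for Abca1. Capitals mark matches, on either strand, to 6 motifs: GAGGAA (the core bound by PU.1, the lineage factor of microglia), CACGTG (E-box or CLEAR element), AGGTCA (nuclear receptor half-site, one of the pair that an LXR element holds), TGANTCA (AP-1), TATAAA (a core promoter element) and GGGCGG (Sp1 or KLF box).
Apoe: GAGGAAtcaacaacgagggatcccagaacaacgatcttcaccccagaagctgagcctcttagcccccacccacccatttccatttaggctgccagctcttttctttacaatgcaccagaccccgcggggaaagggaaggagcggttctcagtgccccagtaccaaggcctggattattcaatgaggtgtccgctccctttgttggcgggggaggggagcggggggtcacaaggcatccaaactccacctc
Ch25h: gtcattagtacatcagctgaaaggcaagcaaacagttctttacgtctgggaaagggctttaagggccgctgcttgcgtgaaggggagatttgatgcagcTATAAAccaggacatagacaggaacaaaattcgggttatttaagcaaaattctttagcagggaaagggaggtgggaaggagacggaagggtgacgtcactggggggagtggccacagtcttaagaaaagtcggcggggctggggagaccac
Nceh1: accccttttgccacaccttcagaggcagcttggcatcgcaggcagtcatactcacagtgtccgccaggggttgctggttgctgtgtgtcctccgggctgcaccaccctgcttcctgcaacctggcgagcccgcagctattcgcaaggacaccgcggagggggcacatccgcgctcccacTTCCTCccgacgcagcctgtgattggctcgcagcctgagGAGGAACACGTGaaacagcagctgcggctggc
Abca1: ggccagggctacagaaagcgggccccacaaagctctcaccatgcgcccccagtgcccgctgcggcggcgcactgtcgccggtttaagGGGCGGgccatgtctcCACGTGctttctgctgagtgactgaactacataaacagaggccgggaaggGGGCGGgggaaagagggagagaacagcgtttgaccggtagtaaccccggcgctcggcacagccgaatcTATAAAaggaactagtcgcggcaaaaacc

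In the Nceh1 window, GAGGAA began 71 and 32 bases before the start, and the nearer match ran directly into CACGTG at 26 bases without sharing a base with it. GAGGAA was found in 23.3% and CACGTG in 6.02% of all 32851 mouse windows of this length. The Apoe window held 1 GAGGAA, 250 bases before the start. Ch25h held TATAAA at 151 bases, a motif of 12.4% of all windows. Abca1 held CACGTG at 147 bases, TATAAA at 29 bases and GGGCGG at 163 and 97 bases (32.7% of all windows for the last). AGGTCA and TGANTCA, present in 14% and 6.75% of all windows, had no exact match in the 4 windows shown. An LXR element whose half-sites differ from AGGTCA by a base would not be marked, so the lack of an LXR element cannot be read from this. Windows were at hand for 7 of the 10 members, and the matches are descriptions of letters, not of binding.

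Apoe, Lpl, Ch25h and Nceh1 were higher in mice with the transgenes, both in 5xFAD against WT and in Card9-/-5xFAD against Card9-/-. In the first comparison the increases were 24.5-fold for Lpl, 43.8-fold for Ch25h, 6.13-fold for Nceh1 and 3.09-fold for Apoe, and in the second they were 17.1-fold, 25.7-fold, 5.25-fold and 2.71-fold. No member was lower past the threshold. Apoc1, Abca1, Abcg1, Soat1 and Plin2 did not pass in either comparison. The test was edgeR's quasi-likelihood test over all 16 libraries with p-values adjusted by the Benjamini-Hochberg method over the 14513 genes, and the threshold was 0.1.

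These 4 of 9 tested members stood beside 2.09% of all genes called in 5xFAD against WT (1.57% higher and 0.524% lower) and 1.97% in Card9-/-5xFAD against Card9-/- (1.49% higher and 0.482% lower). The members were chosen with earlier results of these data known, so their share is a description and not a test of the pathway. The median log2 fold change of the 9 members was 1.45 and 0.91, beside -0.15 over all genes tested in both comparisons. The 2 comparisons share no library, but both come from 1 fit over all 16 libraries, so their tests are not independent. In these bulk libraries, a change in the number of cells of a type cannot be told apart from a change in RNA per cell.

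**Figure D1:**
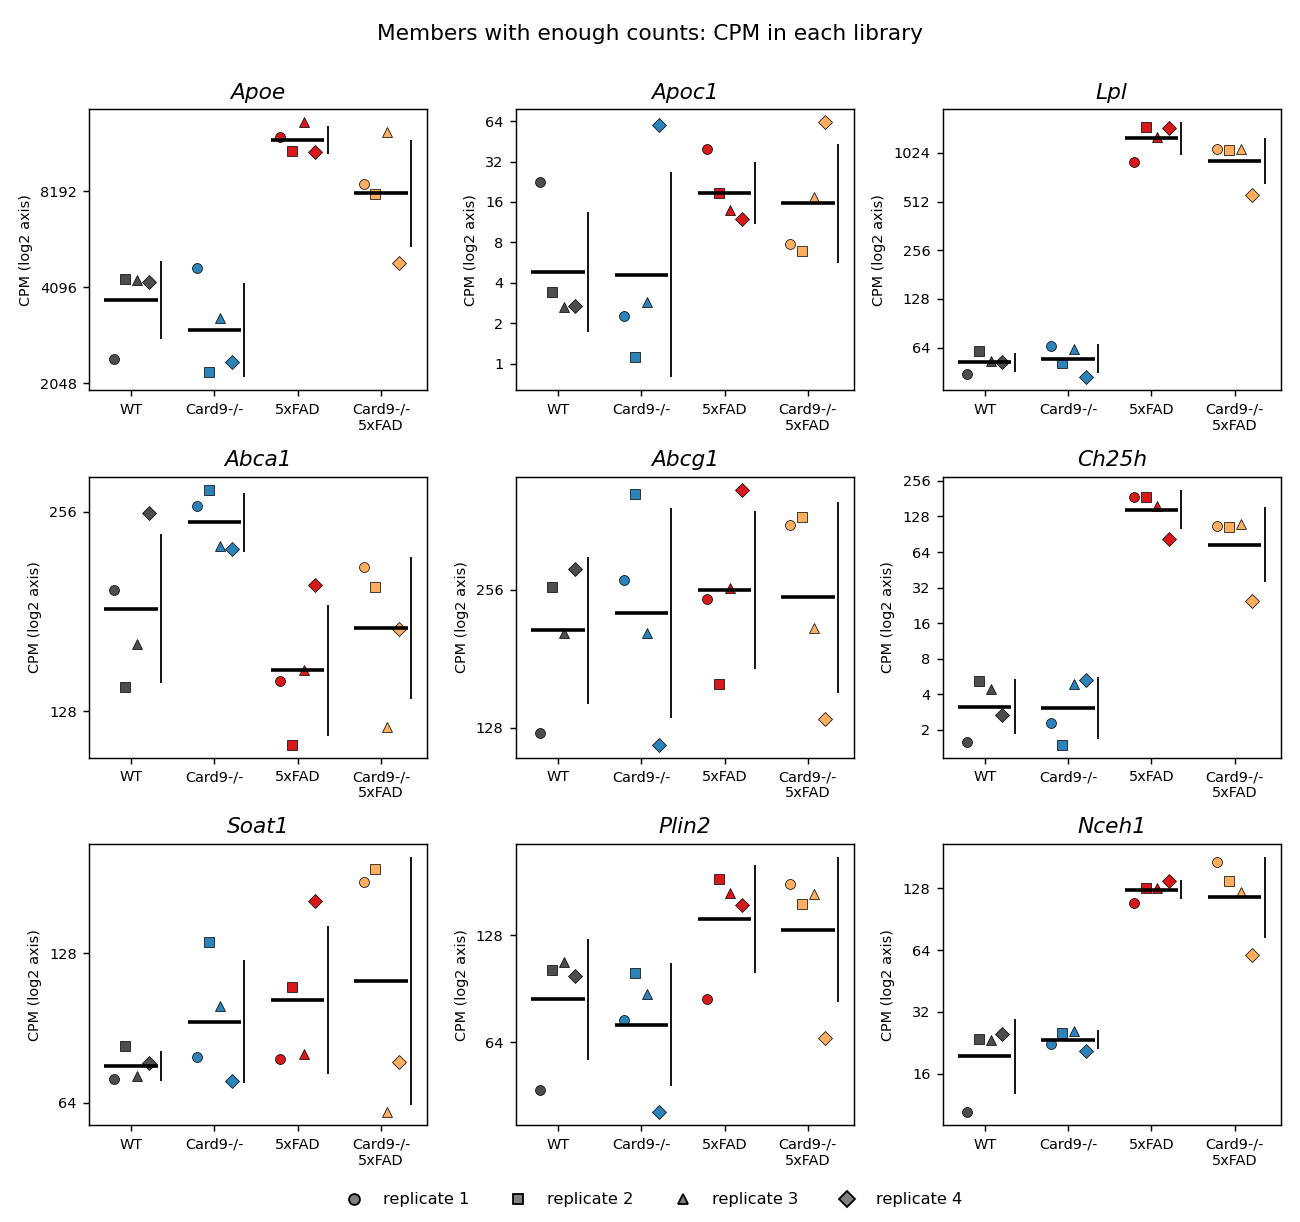
CPM of the 9 tested members in each library, by genotype, on a log2 axis that differs between panels. Symbols give replicate numbers, horizontal lines the mean and vertical lines 1 SD on the log2 scale (n = 4). Every library with the transgenes lies above every library without them for Apoe, Lpl, Ch25h and Nceh1, while the genotypes overlap for Apoc1, Abcg1, Soat1 and Plin2.

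Apoe occupies bases 19696109 to 19699188 of chromosome 7, on its minus strand (GRCm38 coordinates, as for the other members, which mm10 shares). It stood at 2444, 4361, 4303 and 4257 CPM in WT replicates 1 to 4, and at 4695, 2218, 3277 and 2398 CPM in Card9-/-. With the transgenes it stood at 12145, 10965, 13481 and 10872 CPM in 5xFAD and at 8615, 8051, 12519 and 4878 CPM in Card9-/-5xFAD. The lowest library with the transgenes, Card9-/-5xFAD replicate 4, was just above the highest without them, Card9-/- replicate 1. Apoe had the highest CPM of all genes in 7 of the 8 libraries with the transgenes and ranked 12 in Card9-/-5xFAD replicate 4, whereas it ranked between 8 and 26 in the 8 libraries without them.

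On the log2 scale Apoe differed by 1.63 (SE 0.34, adjusted p = 0.0187) in 5xFAD against WT and 1.44 (SE 0.33, adjusted p = 0.0480) in Card9-/-5xFAD against Card9-/- (edgeR). The second call was the weakest of the 4 members. It was lost when any 1 of Card9-/- replicates 2 and 3 or Card9-/-5xFAD replicates 1, 2 and 3 was left out (adjusted p = 0.206, 0.126, 0.131, 0.113 and 0.177), with log2 fold changes that stayed between 1.19 and 1.69 over all 16 omissions. Without a filter on low counts neither Apoe call passed (adjusted p = 0.206 and 0.317), and with edgeR on only the 8 libraries of Card9-/- and Card9-/-5xFAD the second was lost (adjusted p = 0.273). An exact two-sided permutation test of log2 CPM gave p = 0.0286 in each comparison, the smallest that 4 libraries against 4 allow.

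Astrocytes and border-associated macrophages also express Apoe. Of 8 tested astrocyte markers 1, Gfap, was higher with the transgenes in both comparisons. Astrocyte marker sums ran from 238 to 340 CPM in WT and from 189 to 241 CPM in 5xFAD. Slc1a3 had a median of 202 CPM over all libraries, against at most 15.0 CPM for any other astrocyte marker. The sums therefore mainly follow Slc1a3 and cannot be read as an amount of astrocytes. Of 8 border-associated macrophage markers 3 were lower in 5xFAD than in WT and 1 in Card9-/-5xFAD than in Card9-/-. The sums of border-associated macrophage markers ran from 932 to 1454 CPM in WT and from 536 to 669 CPM in 5xFAD. They ran from 906 to 1709 CPM in Card9-/- and from 381 to 1607 CPM in Card9-/-5xFAD, where the ranges overlapped. The part of these cells in the level of Apoe was not tested.

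Lpl (chromosome 8, bases 68880491 to 68907448, plus strand) had the smallest p-values of the members. It stood at 43.7, 60.8, 53.2 and 52.0 CPM in WT and at 65.4, 51.7, 62.6 and 41.9 CPM in Card9-/-. With the transgenes it stood at 904, 1487, 1290 and 1457 CPM in 5xFAD and at 1090, 1071, 1076 and 561 CPM in Card9-/-5xFAD. The lowest library with the transgenes was several times above the highest without them, and again it was Card9-/-5xFAD replicate 4. For Lpl the change on the log2 scale was 4.61 (SE 0.33, adjusted p = 7.35e-07) with Card9 and 4.10 (SE 0.32, adjusted p = 3.00e-06) without it (edgeR).

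Ch25h (chromosome 19, bases 34473778 to 34475164, minus strand) had the largest fold changes of the members. It stood at 1.58, 5.13, 4.41 and 2.67 CPM in WT and at 2.28, 1.49, 4.86 and 5.23 CPM in Card9-/-, from 9 to 82 reads per library. It stood at 188, 188, 157 and 82.9 CPM in 5xFAD and at 106, 104, 110 and 24.8 CPM in Card9-/-5xFAD. The groups with and without the transgenes were far apart, with a change on the log2 scale of 5.45 (SE 0.59, adjusted p = 8.80e-05) with Card9 and 4.68 (SE 0.57, adjusted p = 3.10e-04) without it (edgeR). Of its 1387 exonic bases, 159 overlap Gm26902 on the other strand, and the strand setting of the counting is not given in the sources used here.

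Nceh1 (chromosome 3, bases 27182965 to 27284608, plus strand) stood at 10.4, 23.6, 23.3 and 25.0 CPM in WT and at 22.3, 25.4, 25.8 and 20.6 CPM in Card9-/-. It stood at 109, 129, 129 and 139 CPM in 5xFAD and at 173, 139, 123 and 60.9 CPM in Card9-/-5xFAD. No library with the transgenes came near a library without them. Nceh1 was higher by 2.62 on the log2 scale (SE 0.33, adjusted p = 3.88e-04) with Card9 and by 2.39 (SE 0.33, adjusted p = 7.59e-04) without it (edgeR).

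**Figure D2:**
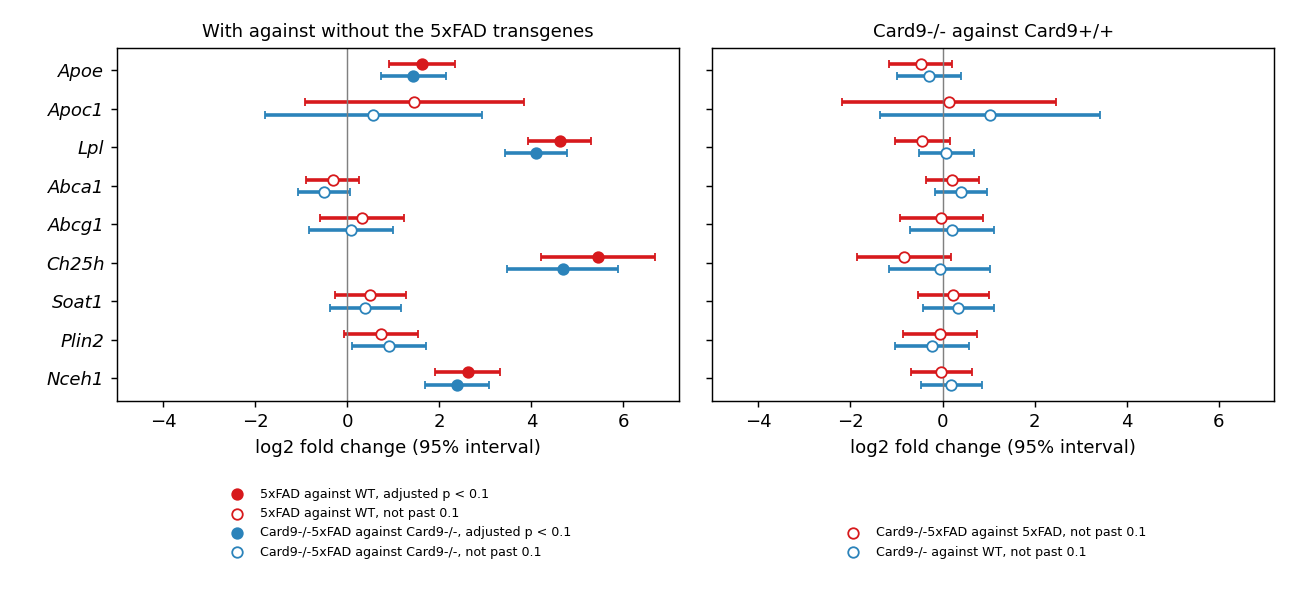
Log2 fold changes of the 9 tested members (edgeR, all 16 libraries), with 95% intervals as bars. Left, mice with against without the transgenes, in Card9+/+ (red) and Card9-/- (blue). Right, Card9-/- against Card9+/+, with the transgenes (red) and without them (blue). Filled points passed an adjusted p of 0.1: Apoe, Lpl, Ch25h and Nceh1 on the left, at 1.63, 4.61, 5.45 and 2.62 in Card9+/+, and none on the right, where each interval includes 0.

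Neither efflux transporter passed the test in either comparison. Abca1 (chromosome 4, bases 53030787 to 53159895, minus strand) stood at 195, 139, 162 and 254 CPM in WT and at 142, 114, 147 and 198 CPM in 5xFAD, with overlapping groups. It stood at 261, 276, 228 and 225 CPM in Card9-/- and at 211, 197, 121 and 170 CPM in Card9-/-5xFAD. Here every Card9-/-5xFAD library was below every Card9-/- library. The transgenes went with a change of -0.32 on the log2 scale (SE 0.27, adjusted p = 0.716) with Card9 and -0.50 (SE 0.27, adjusted p = 0.480) without it (edgeR), and the 95% intervals, -0.89 to 0.25 and -1.07 to 0.07, leave out an increase of the size of that of Apoe in either comparison.

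Abcg1 (chromosome 17, bases 31057675 to 31117988, plus strand) ranged from 125 to 284 CPM in WT, from 117 to 414 CPM in Card9-/-, from 160 to 424 CPM in 5xFAD and from 134 to 370 CPM in Card9-/-5xFAD. The 4 ranges overlapped almost wholly. The log2 fold change was 0.31 (95% interval -0.60 to 1.22) with Card9 and 0.09 (-0.82 to 1.00) without it (edgeR, adjusted p = 0.840 and 0.958). Abcg1 passed in 5xFAD against WT with a covariate for the length slope described below (log2 fold change 0.77, adjusted p = 0.092).

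Among all genes, 8.04% did not overlap between 5xFAD and WT and 7.01% did not overlap between Card9-/-5xFAD and Card9-/-. Among the 9 members, 4 did not overlap in the first comparison (Apoe, Lpl, Ch25h and Nceh1) and 5 in the second (the same 4 and Abca1, the only one of them that was lower).

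Of the storage genes, Soat1 (chromosome 1, bases 156424525 to 156474331, minus strand) ranged from 71.5 to 83.1 CPM in WT and from 78.3 to 163 CPM in 5xFAD. It ranged from 70.7 to 135 CPM in Card9-/- and from 61.2 to 189 CPM in Card9-/-5xFAD, so the groups overlapped in both comparisons. Log2 fold changes were 0.51 (95% interval -0.27 to 1.28) with Card9 and 0.40 (-0.38 to 1.17) without it (edgeR, adjusted p = 0.659 and 0.731). With the length slope as covariate it was 0.77 in 5xFAD against WT (adjusted p = 0.085).

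Plin2 (chromosome 4, bases 86648386 to 86670060, minus strand) stood at 47.0, 102, 108 and 98.1 CPM in WT and at 84.8, 185, 169 and 156 CPM in 5xFAD. It stood at 74.1, 100, 87.4 and 40.6 CPM in Card9-/- and at 179, 157, 168 and 65.7 CPM in Card9-/-5xFAD. In each comparison, 3 of 4 libraries with the transgenes were above all libraries without them, and the lowest of each group was a library of few reads or of low length slope. For Plin2 the fit gave log2 fold changes of 0.74 (SE 0.38, adjusted p = 0.507) with Card9 and 0.91 (SE 0.38, adjusted p = 0.329, unadjusted p = 0.0293) without it (edgeR). Without the 3 libraries of fewest reads it was 0.97 in the second comparison (adjusted p = 0.053). Plin2 also passed in both comparisons with 1 surrogate variable (0.94, adjusted p = 0.020 and 1.23, adjusted p = 0.0037) and with the length slope covariate (1.05, adjusted p = 0.072 and 1.27, adjusted p = 0.039). These settings called more of all genes, 8.62% and 12.5% with the surrogate variable and 6.31% and 5.82% with the length slope covariate.

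Levels were also compared between genes per length, as fragments per kilobase of exonic sequence, scaled to a common library total (FPKM, from the union of exons and TMM library sizes). In WT, the order was Apoe at 1797 ± 436 FPKM (SD, n = 4), Abcg1 at 30.0 ± 9.69, Plin2 at 25.3 ± 8.02, Abca1 at 18.1 ± 4.83, Soat1 at 7.75 ± 0.55, Lpl at 5.00 ± 0.67, Nceh1 at 3.92 ± 1.30 and Ch25h at 2.49 ± 1.17, apart from the 2 short apolipoprotein genes below. In 5xFAD, Apoe remained first at 5550 ± 572 FPKM, followed by Lpl at 123 ± 25.6, Ch25h at 111 ± 35.8, Plin2 at 42.3 ± 12.6, Abcg1 at 37.2 ± 15.1, Nceh1 at 24.1 ± 2.43, Abca1 at 14.5 ± 3.40 and Soat1 at 11.0 ± 4.05. Lpl and Ch25h thus stood near the foot of the order in WT and next to Apoe in 5xFAD, where their levels overlapped, as did those of Plin2 and Abcg1.

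The ratio of Nceh1 to Soat1, a gene of ester hydrolysis against a gene of ester formation, was 0.50 ± 0.16 in FPKM (SD, n = 4) in WT, 0.48 ± 0.09 in Card9-/-, 2.34 ± 0.60 in 5xFAD and 2.10 ± 1.12 in Card9-/-5xFAD. It was between 0.27 and 0.61 in all libraries without the transgenes and between 1.37 and 3.75 in all libraries with them. The ratio of Apoe to Abca1 was 106 ± 42.0 in WT, 61.9 ± 21.1 in Card9-/-, 397 ± 90.4 in 5xFAD and 259 ± 163 in Card9-/-5xFAD, with no overlap between 5xFAD and WT or between Card9-/-5xFAD and Card9-/-. The ratio of Apoe to Abcg1 was 61.6 ± 9.15, 50.4 ± 22.4, 167 ± 60.5 and 121 ± 58.6 in the same order. These 3 ratios were chosen after the values were seen and are given without a test. Their genes went unequally with the length slope described below. Within genotypes, r was 0.83 for Soat1 and 0.66 for Nceh1, and 0.90 for Abcg1, 0.62 for Abca1 and 0.19 for Apoe. The part of the slope in the ratios was not tested.

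**Figure D3:**
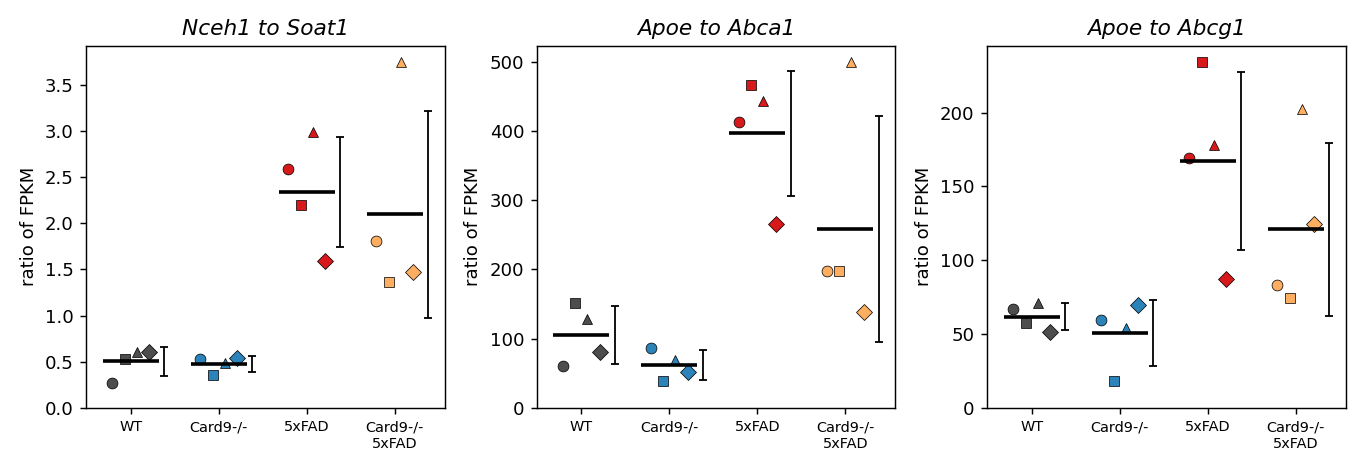
Ratio of FPKM of Nceh1 to Soat1, of Apoe to Abca1 and of Apoe to Abcg1 in each library, by genotype, with the mean (horizontal line) and 1 SD (bar, n = 4) and symbols by replicate number as in the plot of CPM. The Nceh1 to Soat1 ratio lies between 0.27 and 0.61 in the 8 libraries without the transgenes and between 1.37 and 3.75 in the 8 with them.

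Apoc1 and Apoc2 lie beside Apoe on the minus strand of chromosome 7, at bases 19689481 to 19692660 and 19671579 to 19677941. Both encode small apolipoproteins, and the protein of Apoc2 is a cofactor of LPL. Apoc2 had 2 reads in all, 1 in WT replicate 4 and 1 in Card9-/- replicate 2. A count of 0 in a library allows up to 3 reads, which is between 0.178 and 1.20 CPM in the libraries with a count of 0, for counting error only. Of its exonic bases, 79.5% overlap Gm44805 on the same strand, which had 0 reads in every library, and how the counting treated reads in shared bases is not given in the sources used here. An absence of Apoc2 RNA therefore cannot be read from these counts.

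Apoc1 stood at 22.5, 3.42, 2.65 and 2.67 CPM in WT and at 39.7, 18.6, 13.9 and 11.8 CPM in 5xFAD. It stood at 2.28, 1.12, 2.90 and 59.5 CPM in Card9-/- and at 7.80, 6.96, 17.4 and 62.9 CPM in Card9-/-5xFAD. The libraries of fewest reads, WT replicate 1, Card9-/- replicate 4 and Card9-/-5xFAD replicate 4, each had the highest Apoc1 of their genotype. With them, the fitted log2 change was 1.45 (SE 1.12, adjusted p = 0.681) with Card9 and 0.56 (SE 1.11, adjusted p = 0.882) without it. Without these 3 libraries it was 2.87 (adjusted p = 0.0045) and 2.38 (adjusted p = 0.019), both past the threshold (edgeR), in a setting that called 12.9% and 10.3% of all genes. That setting kept 5xFAD replicate 1, which had the highest Apoc1 of 5xFAD and the lowest length slope of all libraries (-0.22). Choroid plexus or ependymal markers were highest in that library (1342 CPM) and the 3 libraries of fewest reads. The part of such cells in Apoc1 was not tested. Without 5xFAD replicate 1 alone, the value in 5xFAD against WT was 0.96. With all 16 libraries and 1 surrogate variable, Apoc1 also passed in 5xFAD against WT (1.40, adjusted p = 0.024), where 8.62% of all genes were called. Without Card9-/- replicate 4 alone, the second value was 3.46 (adjusted p = 0.080), and without Card9-/-5xFAD replicate 4 alone it was -0.54.

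Apoc4, which lies between Apoc1 and Apoc2, is not a member. It had from 1 to 13 reads per library in WT, and its filter was not checked in WT alone. It stood at 2.11, 0.086, 1.43 and 0.21 CPM in WT and at 29.6, 17.1, 17.8 and 7.08 CPM in 5xFAD, without overlap (log2 fold change 4.30, SE 1.22, adjusted p = 0.121, edgeR). In Card9-/- it stood at 0.48, 0.37, 0.18 and 11.8 CPM and in Card9-/-5xFAD at 8.19, 4.79, 13.7 and 33.2 CPM, and these groups overlapped (2.47, SE 1.14, adjusted p = 0.399). As with Apoc1, the high value without the transgenes was in Card9-/- replicate 4.

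Libraries differed in how the level of a gene went with its exonic length, and this slope moved with some members. It was taken for each library as the slope of the deviation of log2 CPM from its mean over libraries on log2 exonic length, over 13539 tested genes with a length, and was between -0.22 and 0.29 per doubling of length. After the mean of each genotype was subtracted, Pearson's r over the 16 libraries between a member and the slope was -0.87 for Apoc1 (744 exonic bases), 0.90 for Abcg1 (7298), 0.83 for Soat1 (9791), 0.70 for Plin2 (3512), 0.66 for Nceh1 (5253), 0.62 for Abca1 (10363), 0.60 for Lpl (10478), 0.19 for Apoe (2138) and -0.12 for Ch25h (1387). The slopes of 5xFAD were between -0.22 and 0.07 and those of WT between -0.14 and 0.15. The 4 called members remained called with the slope as a covariate.

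**Figure D4:**
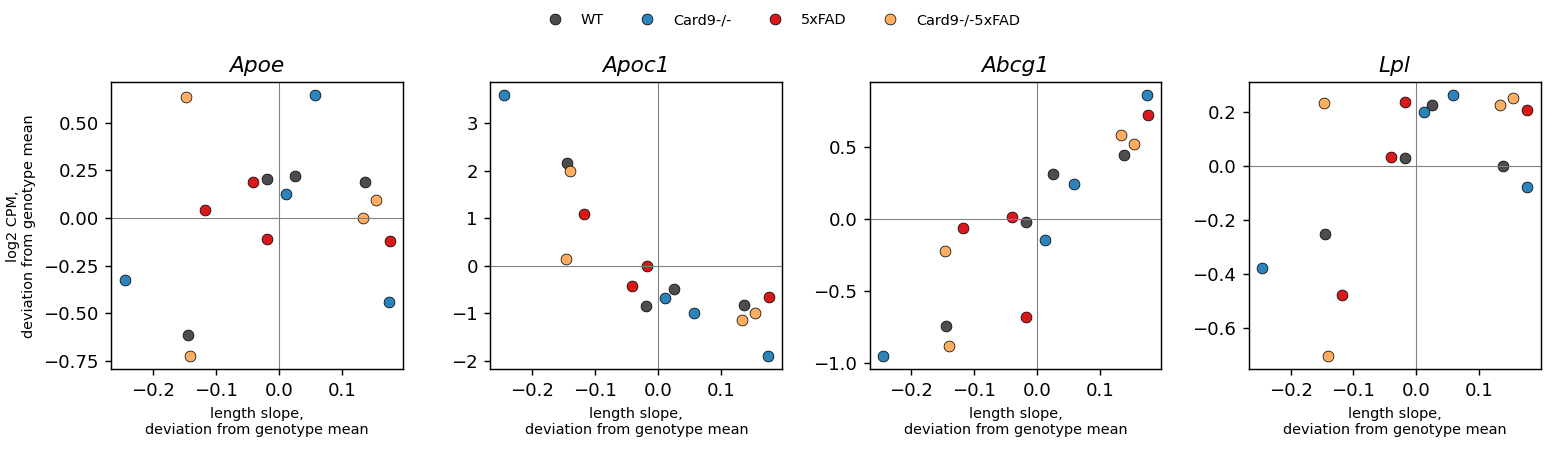
Deviation of log2 CPM of Apoe, Apoc1, Abcg1 and Lpl from the mean of each genotype (vertical axes) against the deviation of the library's length slope (horizontal axes), with 1 point per library coloured by genotype. Apoc1 falls and Abcg1 climbs along the slope (r = -0.87 and 0.90 over 16 libraries), while Apoe shows little relation (r = 0.19).

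Between libraries of the same genotype, Lpl, Plin2 and Nceh1 varied together. After the genotype means were subtracted, Pearson's r of log2 CPM over the 16 libraries was 0.87 for Lpl and Plin2, 0.85 for Plin2 and Nceh1 and 0.75 for Lpl and Nceh1. Apoe had r of 0.68 with Lpl and 0.63 with Nceh1. Apoc1 had r of -0.89 with Plin2 and -0.85 with Abcg1. The points share libraries, depth and the length slope, and the values are descriptions.

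By the same measure over all tested genes, the 5 genes most like Apoe were Lyz2 (r = 0.95), Arpc2 (0.95), Itm2b (0.93), Ldhb (0.93) and Cerox1 (0.92). Those most like Lpl were R3hcc1 (0.96), Sirt2 (0.96), Anxa7 (0.95), Zc4h2 (0.95) and Oxnad1 (0.95). Those most like Abca1 were Tjp1 (0.96), Ajm1 (0.96), Kpna4 (0.95), Golga2 (0.95) and Wdr81 (0.94). No gene was among the 5 of more than 1 of these 3 members.

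No member passed between Card9 genotypes. In Card9-/-5xFAD against 5xFAD and in Card9-/- against WT, edgeR called 0 members and 0% of all genes (366 and 597 of 14513 genes had an unadjusted p under 0.05, 0 of them members). DESeq2 called 2 and 5 genes over all 16 libraries and 9 and 8 genes on only the groups compared, again 0 members. The groups did not overlap for 1.89% and 2.66% of all genes, and for 0 members.

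The 3 point estimates farthest from no change in Card9-/-5xFAD against 5xFAD were of genes that rose with the transgenes. Ch25h was 0.56-fold (95% interval 0.28 to 1.14), Apoe 0.72-fold (0.44 to 1.16) and Lpl 0.74-fold (0.49 to 1.12), while Nceh1 was 0.98-fold (0.62 to 1.55). In each of the first 3, Card9-/-5xFAD replicate 4 was the lowest library of its genotype, and they were 0.69-fold, 0.82-fold and 0.84-fold both without it and without all 3 libraries of fewest reads. The intervals of the other tested members were 0.78 to 1.73 for Abca1, 0.52 to 1.85 for Abcg1, 0.69 to 2.01 for Soat1, 0.55 to 1.67 for Plin2 and 0.22 to 5.54 for Apoc1. The sum over early-response genes was between 10044 and 15197 CPM in 5xFAD and between 16184 and 21252 CPM in Card9-/-5xFAD, and their part in these values was not tested.

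In Card9-/- against WT the values were 0.82-fold for Apoe (95% interval 0.51 to 1.33), 1.06-fold for Lpl (0.70 to 1.60), 0.96-fold for Ch25h (0.45 to 2.04), 1.14-fold for Nceh1 (0.72 to 1.82) and 1.32-fold for Abca1 (0.89 to 1.96). The intervals were 0.61 to 2.16 for Abcg1, 0.74 to 2.17 for Soat1, 0.49 to 1.49 for Plin2 and 0.39 to 10.7 for Apoc1. All include 1, and changes of up to about the bounds cannot be told from none at this number of libraries.

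The interaction asks whether the response to the transgenes differed by Card9 genotype. It was negative for 8 of the 9 members, whereas it was positive for 52.4% of all genes tested (median 0.018). Several members varied together between libraries, so the 8 are not separate observations. The rise was smaller in Card9-/- mice by 0.77 for Ch25h (difference -0.77, 95% interval -2.27 to 0.73). It was smaller by 0.52 for Lpl (-0.52, -1.36 to 0.32) and by 0.19 for Apoe (-0.19, -1.17 to 0.79). For Abca1 the negative value was instead a larger fall, -0.50 against -0.32. Plin2 alone was positive, at 0.17 (-0.96 to 1.31). The edgeR test called 0 members and 0% of all genes, with 78 genes and 0 members under an unadjusted p of 0.05, and DESeq2 called 1 gene, not a member. These differences moved when single libraries were left out. Over all omissions of 1 library, those of Ch25h (-1.04 to -0.45), Lpl (-0.66 to -0.33) and Abca1 (-0.37 to -0.05) stayed negative. Those of the other tested members turned sign in at least 1 omission. Without Card9-/-5xFAD replicate 4 the differences were -0.45 for Ch25h, -0.33 for Lpl and 0.005 for Apoe, and 5 of the 9 members were negative. Without the 3 libraries of fewest reads they were -0.04 for Ch25h, -0.37 for Lpl, 0.05 for Apoe and 0.15 for Nceh1, and 6 of 9 were negative.

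Other genes of the pathway were read from 7 lists with 71 genes, of which 51 were tested. In both comparisons with the transgenes 5 rose and 0 fell, and the median log2 fold change over the 51 was -0.07 with Card9 and -0.14 without it. The list of 9 tested lipoprotein and lipid receptors held 2 of them, Lrpap1, a chaperone of lipoprotein receptors, and Trem2, a lipid-sensing receptor that binds apolipoprotein E. The list of 8 other cholesterol transporters held Npc2, which carries cholesterol out of lysosomes, and the list of 10 genes of lipid droplets and fatty acid handling held the fatty acid carriers Fabp3 and Fabp5.

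Lrpap1 was at 292 ± 107 CPM (SD, n = 4) in WT and at 881 ± 107 CPM in 5xFAD, higher by 1.59 on the log2 scale (SE 0.30, adjusted p = 0.0111, edgeR). In mice without Card9 the log2 fold change was 1.17 (adjusted p = 0.0770). Trem2 was at 1628 ± 198 CPM in WT and 4226 ± 1097 CPM in 5xFAD (1.38, adjusted p = 0.0340), and at 1049 ± 292 CPM in Card9-/- and 2818 ± 995 CPM in Card9-/-5xFAD (1.43, adjusted p = 0.0347). Npc2 was at 700 ± 87.4 CPM in WT and 1762 ± 310 CPM in 5xFAD (1.33, adjusted p = 0.0198), with 1.22 (adjusted p = 0.0421) in mice without Card9. Each of these 3 genes had a smaller log2 fold change than Lpl, Ch25h and Nceh1.

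Like that of Apoe, some of their calls were lost when 1 library was left out. For Trem2 this was so in 5xFAD against WT without WT replicate 3 or 4 or 5xFAD replicate 3 (adjusted p of at most 0.154), and in Card9-/-5xFAD against Card9-/- without Card9-/- replicate 2 or Card9-/-5xFAD replicate 3 (at most 0.155). For Npc2 the call in Card9-/-5xFAD against Card9-/- was lost without Card9-/- replicate 1, 2 or 3 or Card9-/-5xFAD replicate 3 (at most 0.165). For Lrpap1 that call was lost in 10 of 16 omissions (at most 0.262), those of WT replicates 3 and 4, Card9-/- replicates 1, 2 and 3, 5xFAD replicates 2 and 3 and Card9-/-5xFAD replicates 1, 2 and 3.

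The 2 fatty acid carriers had fold changes of the order of those of Lpl and Ch25h. Fabp3 was at 1.70 ± 0.86 CPM in WT and 102 ± 46.8 CPM in 5xFAD (log2 fold change 5.91, SE 0.53, adjusted p = 9.20e-06), and at 1.06 ± 0.84 CPM in Card9-/- and 68.0 ± 15.6 CPM in Card9-/-5xFAD (6.26, SE 0.55, adjusted p = 9.99e-06). Fabp5 was at 15.6 ± 15.0 CPM in WT and 467 ± 282 CPM in 5xFAD (4.91, SE 0.87, adjusted p = 0.00613), and at 9.38 ± 11.5 CPM in Card9-/- and 259 ± 117 CPM in Card9-/-5xFAD (4.86, SE 0.87, adjusted p = 0.00766). The ranges with and without the transgenes did not overlap for either gene. Fabp3 stood between 0.88 and 2.64 CPM in WT and between 0.41 and 2.29 CPM in Card9-/-. The check of the filter in WT alone was made for members only. Fabp3 may therefore have entered the test only through the genotypes in which it was high.

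**Figure D5:**
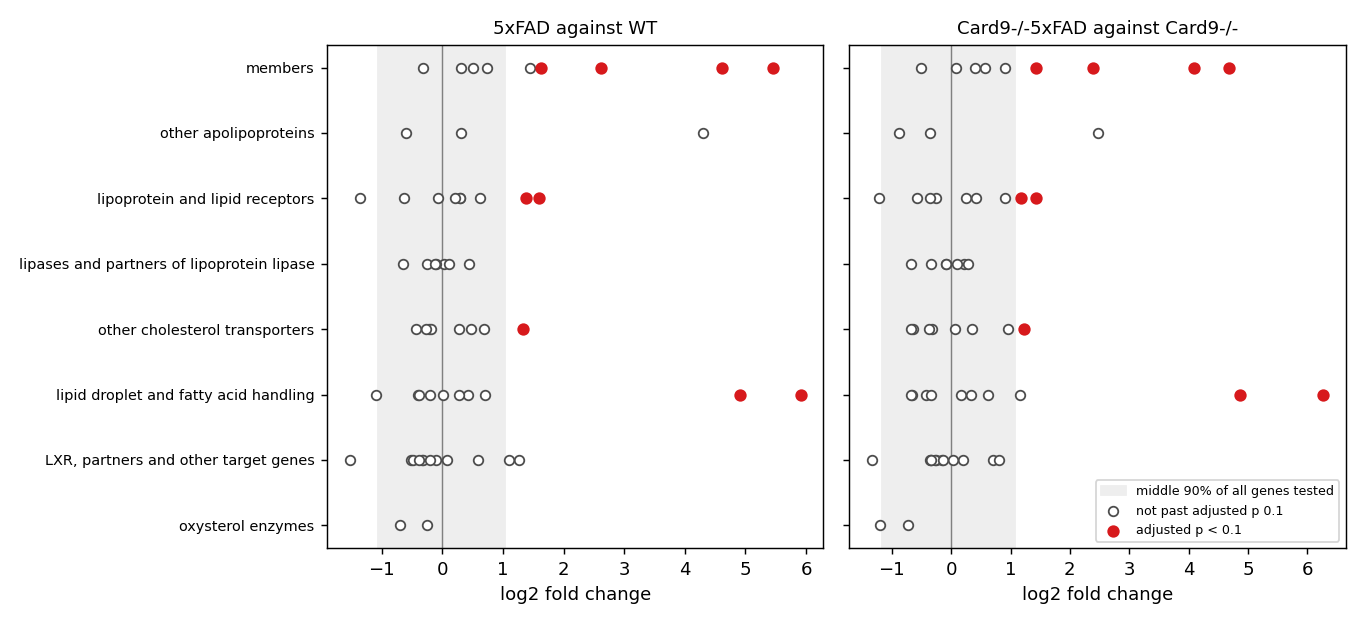
Log2 fold changes (edgeR) of the 9 tested members and of the tested genes of 7 lists of the pathway, in 5xFAD against WT (left) and Card9-/-5xFAD against Card9-/- (right), with 1 point per gene. Red points passed an adjusted p of 0.1, and the grey band holds the middle 90% of all tested genes. Besides 4 members, 5 genes passed on each side, at most 2 per list, and none of the 12 genes in the LXR list.

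The other 4 lists had no call in either comparison. None of the 12 tested genes of the list of LXRs, their partners and other target genes passed, with a median log2 fold change of -0.26 with Card9 and -0.21 without it. Lipases and partners of LPL (7 tested, medians -0.11 and -0.08), other apolipoproteins (3 tested, 0.30 and -0.36) and oxysterol enzymes (2 tested, -0.48 and -0.97) likewise had 0 calls. Between Card9 genotypes and in the interaction, 0 of the 51 genes passed.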

How the data were processed

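CD11b+ cells of 16 brains were sequenced in bulk, 4 libraries per genotype as labelled. Per the study's methods, the authors aligned reads to mm10 with HISAT2, filtered them with SAMtools, counted them on genes with HTSeq and deposited raw counts without normalization; strand and shared-read settings are not given in the sources used here. The counts were tested with edgeR 4.0.16 in R 4.3.3 (TMM, filterByExpr with a minimum count of 10, quasi-likelihood fit of 16 libraries in 4 groups) and adjusted by the Benjamini-Hochberg method with a threshold of 0.1. SEs come from the change and its F statistic. DESeq2 1.42.0 and sva 3.50.0 served as alternatives. Log2 CPM used a prior count of 2. Positions and lengths come from GENCODE M21 (GRCm38), promoters from RefSeq. The members and lists were chosen with earlier results of these data known. Named were all members, up to 3 called genes of each list in each direction, and the 5 genes most like Apoe, Lpl and Abca1. The edgeR and DESeq2 tests of 5xFAD against WT were tried on counts drawn with known changes. No 2 libraries of a genotype were copies (chi-square of at least 6.18 per degree of freedom in all 24 pairs). Labels number the libraries as separate samples, and p-values measure the spread between them. Same-numbered libraries of different genotypes had correlations of their deviations from -0.71 to 0.73, so the numbers were not taken as pairs.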

Additional observations from a re-analysis of the deposited data

Results flagged for a closer look

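In 7 of 36 sets of 4 libraries (9 members in 4 genotypes), 1 library was far from the other 3 by Dixon's criterion. For a single set of normal values, chance gives about 1 in 20. The 36 sets share libraries and several members vary together, so the number flagged cannot be set against that rate. Of the 7, 3 were low values of WT replicate 1: Apoe at 2444 CPM, Plin2 at 47.0 CPM and Nceh1 at 10.4 CPM. In the same library Apoc1 was high at 22.5 CPM. The other 3 were low values of Card9-/-5xFAD replicate 4: Lpl at 561 CPM, Ch25h at 24.8 CPM and Plin2 at 65.7 CPM. Both are among the 3 libraries of fewest counted reads, and their neutrophil markers summed to 3690 and 6047 CPM. The part of these in the values was not tested.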

How the results depend on the processing

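Lpl, Ch25h and Nceh1 passed in both comparisons with the transgenes under every alternative that tested them. At least 10 counts in every library removed Ch25h (9 reads in WT replicate 1), which left 3 and 3 members called. Of the genes named from the lists, it also removed Fabp3. Of 4 called members in 5xFAD against WT, the count was 7 with the length slope covariate, chosen after the data were seen (6.31% of all genes called, against 2.09%), 6 with 1 surrogate variable (8.62%), and 4 in every omission of 1 library. In Card9-/-5xFAD against Card9-/- it was between 3 and 5 over the omissions, 5 with 1 surrogate variable (12.5% of all genes, against 1.97%), and 6 without the 3 libraries of fewest reads, also chosen after the data were seen (10.3%). With the replicate number as a block, 4 and 4 members were called and 0 between Card9 genotypes. Without a filter on low counts Apoe, Trem2 and Npc2 passed in neither comparison, nor Lrpap1 in the second, and with edgeR on only the groups compared none of these 4 passed in the second. Over all genes, DESeq2 called 565 and 812 against 304 and 286, the length slope covariate 916 and 845, 1 surrogate variable 1251 and 1810, the fit without the 3 libraries 1864 and 1494, at least 10 counts in every library 171 and 148, no filter 208 and 185, a threshold of 0.05 222 and 162, and edgeR and DESeq2 on only the groups compared 294 and 96 and 669 and 433.

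Between Card9 genotypes and in the interaction, signs turned in values that passed in no setting. In Card9-/-5xFAD against Card9-/-, Apoc1 was -0.54 without Card9-/-5xFAD replicate 4 but passed in other settings. Between Card9-/-5xFAD and 5xFAD, Apoc1 was -0.47 with the replicate block, -0.51 with 1 surrogate variable and -0.99 without the 3 libraries of fewest reads, where Abcg1 was 0.19, Plin2 0.17 and Nceh1 0.19, and Soat1 was -0.12 with the length slope covariate. Between Card9-/- and WT, Apoc1 was -0.075 with the block and -0.49 without the 3 libraries, Lpl -0.039 under the filter of 10 counts per library and -0.053 with the length slope covariate, and Abcg1 -0.26 with the latter. The interaction of Apoe was 0.046 and that of Nceh1 0.15 without the 3 libraries.

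Omissions of 1 library gave, for Card9-/-5xFAD against 5xFAD, ranges of -0.23 to 0.20 for Abcg1, -0.98 to 0.63 for Apoc1, -0.24 to 0.20 for Nceh1, -0.26 to 0.18 for Plin2 and -0.034 to 0.46 for Soat1. For Card9-/- against WT they were -0.15 to 0.44 for Abcg1, -1.87 to 2.40 for Apoc1, -0.36 to 0.21 for Ch25h, -0.048 to 0.19 for Lpl and -0.027 to 0.30 for Nceh1. For the interaction they were -0.46 to 0.13 for Abcg1, -2.26 to 2.0 for Apoc1, -0.44 to 0.071 for Apoe, -0.43 to 0.0059 for Nceh1, -0.033 to 0.41 for Plin2 and -0.38 to 0.12 for Soat1. In Card9-/-5xFAD against Card9-/-, Abcg1 ran from -0.15 to 0.44 and Apoc1 from -0.54 to 3.46. Apart from the stated constructions, the cause was not tested.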
